A study of Homo sapiens with 6 samples.

Results

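Calsyntenin-1 (CLSTN1), a membrane protein that links vesicles to kinesin, and the kinesin motor genes were followed through a table of cassette exon splicing in breast cancer cells with and without the RNA-binding protein RBM47. A cassette exon is one that is either included between its neighbours or skipped. Members were taken by gene symbol: CLSTN1, CLSTN3, every symbol beginning with KIF and then a digit or C, and every symbol beginning with KLC and then a digit. They came to 65 of 24725 events and 24 of 7969 genes, namely 4 events in CLSTN1, 50 in 20 KIF genes and 11 in 3 KLC genes. CLSTN3 had 0 events. CLSTN1 was chosen by the difference in mean inclusion rate of one of its exons, among the largest decreases measured, so its values are a description with no test. The kinesin genes were taken by symbol, with earlier results of these data known.

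RNA came from 3 control and 3 RBM47 samples of MDA231-BrM2a, cells derived from the human breast cancer line MDA-MB-231 for their growth in brain. Control cells were not clonal and carried the empty pRetroX-Tight-Pur vector. RBM47 cells were a single clone (WT10) with Flag-tagged wild-type RBM47 in the same doxycycline-inducible vector, so effects of RBM47 and of the clone cannot be told apart. All 6 samples received 10 ng/ml doxycycline for 3 days. The labels do not say whether samples of a group were separate cultures. P-values from the sample rates therefore measure only the spread between samples, which may be technical. P-values of Fisher's exact test come from reads summed over a group and do not measure that spread at all.

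Kinesins walk along microtubules using ATP and carry vesicles, organelles and chromosomes, mostly towards the growing plus end. Conventional kinesin (kinesin-1) pairs heavy chains such as KIF5B with light chains (KLC1, KLC2, KLC4) that hold the cargo. Calsyntenin-1 is a type I membrane protein of the cadherin superfamily whose cytoplasmic tail binds the kinesin light chains, and it is best known from the transport of vesicles, including those with the amyloid precursor protein, along axons. Motor and adaptor genes are spliced differently between tissues, and alternative exons often lie outside the motor domain, in stalks and tails that meet cargo.

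The exons with the largest differences are shown first, because each is short enough to be seen whole or at its ends. Exons were found by gene and outer span in the GENCODE annotation of GRCh37, and sequences are from that build. Each line runs 5′ to 3′ on the strand of the gene, with the exon in capitals and up to 30 bases of the intron before it and 15 bases of the intron after it in lower case. Of the KIF17 exon of 557 bases, the first 60 and the last 60 bases are given. Exons with rates lower in all RBM47 samples than in any control sample come first (CLSTN1 at chr1:9797541-9797642 and chr1:9816524-9816598, KIF17 at chr1:21014378-21014467 and chr1:21013866-21013940), then the KIF21A exon, lower on average (chr12:39724029-39724094), and the KIF13A exon, higher in all RBM47 samples (chr6:17771330-17771479). All 5 exons are coding and on the minus strand.
CLSTN1, 57-base exon: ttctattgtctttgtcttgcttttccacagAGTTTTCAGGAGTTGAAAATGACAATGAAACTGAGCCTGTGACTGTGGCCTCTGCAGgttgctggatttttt
CLSTN1, 30-base exon: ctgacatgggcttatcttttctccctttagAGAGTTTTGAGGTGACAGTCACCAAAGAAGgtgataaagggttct
KIF17, first 60 bases of the exon: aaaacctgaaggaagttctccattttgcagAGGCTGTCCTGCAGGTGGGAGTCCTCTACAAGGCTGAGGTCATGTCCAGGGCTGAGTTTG
KIF17, last 60 bases of the exon: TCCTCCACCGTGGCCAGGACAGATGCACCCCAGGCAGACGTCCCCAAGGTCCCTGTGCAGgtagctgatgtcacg
KIF21A, 21-base exon: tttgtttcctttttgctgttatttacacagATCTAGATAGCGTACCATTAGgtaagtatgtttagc
KIF13A, 105-base exon: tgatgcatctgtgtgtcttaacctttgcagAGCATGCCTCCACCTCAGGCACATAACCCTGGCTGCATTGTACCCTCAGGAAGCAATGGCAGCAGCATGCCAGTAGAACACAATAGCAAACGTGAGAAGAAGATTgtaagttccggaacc

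The quantity compared is the inclusion rate of a sample, a fraction from 0 to 1. Its numerator is the count of reads that cross into or out of the exon, and its denominator adds to that count the skipping reads, weighted by 2. Read counts were available only as sums over the 3 samples of a group, so the depth of a single sample is unknown and its rate carries no interval. Over the whole table these sums were 26498401 reads in control and 24116982 in RBM47 cells. RBM47 replicate 2 stood apart: among 5998 events of intermediate inclusion, it had 14.8% of rates at exactly 0 or 1, where the other samples had 6.07% to 7.64%. RBM47 itself had 0 events, and the table holds no expression values, so neither the transgene nor markers of the cell type could be checked. Coordinates are those of the table, whose build is not named, unless GRCh37 is given.

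In part of the deposited rows the sample rates did not average to the printed group averages, and rates were then taken from the row that fitted the printed averages. For the CLSTN1 57-base and KIF13A 105-base exons the match rested on the RBM47 average alone. Their printed control averages, which are the authors' means (0.713 and 0.812), lie far from the rates that the control read sums give (0.912 and 0.139), whereas the matched control rates lie close to them (0.911 and 0.141). Rows matched by the RBM47 average alone were 251 in the whole table. They held 251 of the 346 events past the study's criteria and 91 of the 92 past the replicate-level test, both explained with the counts of calls. Results on these exons therefore rest on the re-matching as well as on the samples.

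The 57-base exon of CLSTN1 (chromosome 1, 9718529 to 9723900 in the table) went from mostly included to mostly skipped. Its inclusion rate was 0.903, 0.909 and 0.919 in control replicates 1 to 3 and 0.295, 0.391 and 0.241 in RBM47 replicates 1 to 3. The lowest control sample was thus far above the highest RBM47 sample. The means were 0.911 ± 0.00797 and 0.309 ± 0.0761 (SD, n = 3 each), a difference of -0.602. Leaving out any one sample kept the difference between -0.643 and -0.568. Including reads numbered 1855 in control and 383 in RBM47 cells, and skipping reads 89 and 430. The skipping isoform therefore had 4.83 times as many reads in RBM47 as in control cells, although the gene had fewer reads in all.

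A second CLSTN1 event held the same exon from the other side. It began at 9720142, which is 1613 bases inside the first event, and in GRCh37 the 57-base exon also begins 1613 bases inside that span. Its skipping junction is therefore the one that joins the 57-base exon to its upstream neighbour. Reads on that junction were 896 in control and 178 in RBM47 cells, a ratio of 0.199. In the first event the including reads had a ratio of 0.206. The same junction reads enter both events, so they are not independent. Reads leaving the upstream exon, to the 57-base exon or past it, summed to 985 and 608, a ratio of 0.617, so the joins to the exon dropped further than the sum of both kinds of join. The second event's including reads (66 and 33), which leave the same neighbour, are not in these sums. Inclusion of the second event's own exon was low, 0.0106 ± 0.00964 in control and 0.0275 ± 0.0169 in RBM47 cells (SD, n = 3 each), and its groups overlapped.

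The 30-base exon of CLSTN1, near the start of the gene, was also lower with RBM47. Its rate was 0.220, 0.339 and 0.206 in control replicates 1 to 3 and 0.0426, 0.126 and 0.0548 in RBM47 replicates 1 to 3. The groups did not overlap, and the control samples were spread more widely than those of the 57-base exon. The means were 0.255 ± 0.0729 and 0.0745 ± 0.0452 (SD, n = 3 each), from 914 and 377 reads. The difference of -0.181 was under the 0.2 that the study required, and was -0.207 without RBM47 replicate 2. The last CLSTN1 event (9734117 to 9737953) was listed at 0 in every sample, from 1066 and 497 reads. CLSTN1 thus held 2 events with rates near 0 and 2 exons in use, and both exons in use were included less in the RBM47 clone.

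**Figure D1:**
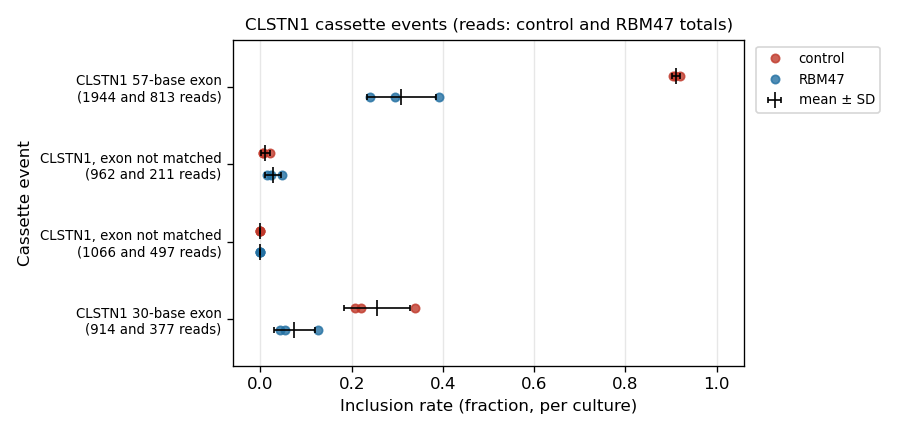
Inclusion rate (x axis, fraction) of the 4 CLSTN1 events (y axis, with the reads summed over control and over RBM47 samples). The axis says per culture, but the labels do not say whether samples were separate cultures. Points are samples, red control and blue RBM47, and black marks are the mean and SD of 3 samples. The 57-base exon lies above 0.9 in control and under 0.4 in RBM47 samples, and the 30-base exon is also lower with RBM47 without overlap.

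Calls among the kinesin events are given beside those of the whole table. The study's criteria, as applied here, were mean rates that differ by at least 0.2, 10 or more reads, and an unadjusted p not above 0.05 in a two-sided Fisher's exact test on the read sums. The paper counted reads spanning exon junctions. Here the reads were summed over both groups, and no event had fewer than 15, so the floor excluded none. Calls made here are therefore not the paper's own list. Of 61 kinesin events, 2 met the criteria, KIF13A higher and KIF21A lower, and of all events 1.4% met them, 0.607% higher and 0.793% lower. The replicate-level test (limma on the sample rates, adjusted p under 0.05 over 5998 events and the same difference) could be made for 16 kinesin events and called 1, KIF13A, higher with RBM47. It called 1.53% of all events tested, 0.75% higher and 0.784% lower. Groups did not overlap in 9 kinesin events, 1 higher and 8 lower, against 9.92% of all events (4.67% higher and 5.25% lower). CLSTN1 is left out of these counts because its difference chose it, and events of a gene can share reads, so nothing is read from the shares. The median difference was -0.000357 over the members, CLSTN1 included, and 0 over all events, and 76.9% of member events against 80.3% of all events differed by less than 0.05.

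**Figure D2:**
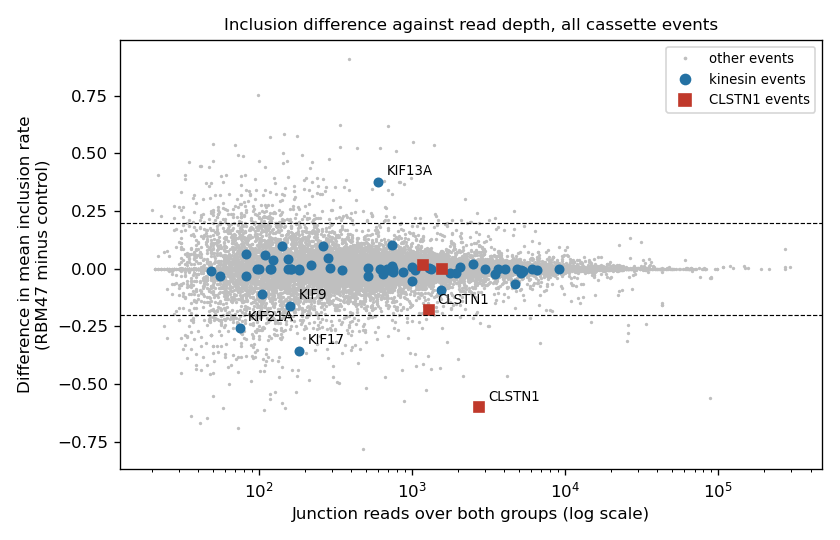
Difference in mean inclusion rate (y axis, RBM47 minus control) against reads summed over both groups (x axis, log scale). Grey points are other events, blue circles kinesin events, red squares CLSTN1 events, and dashed lines mark differences of 0.2 in either direction. Most kinesin events lie near 0, with KIF13A at 0.375 above and KIF17, KIF21A and CLSTN1 below.

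KIF13A was the kinesin whose exon rose. KIF13A is a kinesin-3 motor known for moving recycling endosomes and for carrying the mannose-6-phosphate receptor. The rate of its 105-base exon (chromosome 6, 17872364 to 17880268 in the table) was 0.115, 0.182 and 0.127 in control replicates 1 to 3 and 0.427, 0.621 and 0.503 in RBM47 replicates 1 to 3. Every RBM47 sample was above every control sample. The mean of 3 samples rose by 0.375, from 0.141 (SD 0.0355) to 0.517 (SD 0.0979), with a limma adjusted p of 0.0125. Fisher's exact p on the read sums was 1.26e-26, which leaves out the spread between samples. Including and skipping reads were 64 and 199 in control and 229 and 110 in RBM47 cells. Leaving out 1 sample ended the replicate-level call in 3 cases, with limma adjusted p of 0.0662 without control replicate 1, 0.0796 without control replicate 3 and 0.0514 without RBM47 replicate 3. The difference in those fits was 0.363 to 0.383. The call was also lost when events of every mean rate were tested, and when the variance had no trend on reads.

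The other KIF13A exons did not follow. The 147-base exon was included at 0.861 ± 0.0534 in control and 0.905 ± 0.104 in RBM47 cells, and the 39-base exon at 0.931 and 0.928. The groups overlapped in each. The change in this gene was thus measured at 1 of its 3 events, and that event shares no outer end with the others.

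Among the ciliary and dendritic motors, KIF17, a kinesin-2 motor of cilia and dendrites, had the lower exon of largest size. Its 557-base exon was included at 0.889, 1 and 1 in control replicates 1 to 3 and at 0.571, 0.75 and 0.5 in RBM47 replicates 1 to 3. The groups did not overlap, but the event was thinly read, with 1 skipping read in control and 6 in RBM47 cells. The difference of -0.356 passed neither test (limma adjusted p = 0.0872, Fisher's exact p = 0.118), and from the read sums it was -0.101. The sums hold including reads beyond those that enter the rates (90 and 86 here).

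KIF21A, a kinesin-4 motor that restrains microtubule growth, passed the study's criteria for its 21-base exon but not the replicate-level test. Its rate was 0.333, 0.538 and 0.231 in control replicates 1 to 3 and 0.333, 0 and 0 in RBM47 replicates 1 to 3. RBM47 replicate 1 was level with a control sample, so the groups overlapped. The difference of -0.256 (limma adjusted p = 0.481) rested on 56 and 19 reads and was -0.171 without control replicate 2. Its reads in RBM47 cells were thus under 30.

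Motors of cell division gave the deepest measurements of exons that were neither near 0 nor near 1. KIF23 is the motor of centralspindlin, which builds the midzone and midbody in cytokinesis, and its long form CHO1 carries an extra exon that binds actin. Its 312-base exon was included in about equal parts with its skipping, at 0.506 ± 0.0228 in control and 0.482 ± 0.0402 in RBM47 cells (SD, n = 3 each, 1724 and 1761 reads). Its difference, -0.0236, lay within the SD of the RBM47 samples. The read sums, which hold including reads beyond those that enter the rates, gave 0.678 in control and 0.657 in RBM47 cells. The 42-base exon of KIF23 had rates of 0.208, 0.213 and 0.250 in control replicates 1 to 3 and 0.125, 0.129 and 0.143 in RBM47 replicates 1 to 3. These groups did not overlap, and the difference of -0.0910 (limma adjusted p = 0.149) was under the size required. In KIF2C, a kinesin-13 that takes microtubules apart at centromeres, the 123-base exon stood at 0.853 ± 0.00999 and 0.842 ± 0.0201 (SD, n = 3 each), from 3134 and 2187 reads. KIF20A, a motor of cytokinesis, was included at 0.978 and 0.973 from 3256 reads in each group.

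The kinesin light chain KLC1, the direct partner of calsyntenin-1, had 5 events in the stretch of the gene whose splicing sets the end of the protein. Its 67-base exon was included at 0.790, 0.937 and 0.800 in control replicates 1 to 3 and at 0.946, 0.933 and 0.952 in RBM47 replicates 1 to 3. Control replicate 2 was level with the RBM47 samples, so the groups overlapped. The difference of 0.101 did not pass the replicate-level test (limma adjusted p = 0.387). The 131-base exon stood at 0.486 ± 0.0688 and 0.434 ± 0.148 in one event and at 0.937 ± 0.0280 and 0.941 ± 0.0245 in another, and the 82-base exon at 0.770 ± 0.0929 and 0.754 ± 0.0349 (SD, n = 3 each), with overlap in all 3. Several KLC1 events share an outer end and are not independent. The KLC2 event was included at 0.994 and 1 on average, and the 5 KLC4 events at 0.929 to 1 in both groups.

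KIFC3 and KIFC1 are kinesin-14 motors, which walk towards the minus end. All 4 KIFC3 events were lower in RBM47 cells without overlap, though by little, and of all events 5.25% were lower without overlap. The largest of them (chromosome 16, 56349631 to 56351248) had rates of 0.956, 0.930 and 0.967 in control replicates 1 to 3 and 0.879, 0.894 and 0.877 in RBM47 replicates 1 to 3, a difference of -0.0676 with 52 and 154 skipping reads. The other 3 differed by -0.0178 to -0.0199. A pair of the 4 shares outer ends and skipping reads (711 and 850). None of the 4 entered the replicate-level test, since their mean rates were above 0.9 or under 0.1. In KIFC1, which clusters extra centrosomes, one event was at 1.000 and 0.999 and the other at 0.00672 and 0.00153 from 2914 and 2201 reads.

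The remaining kinesin events showed small differences or wide spread. Of 14 kinesin events with a mean rate of 0.1 to 0.9 and at least 30 reads in each group, 10 (in 8 genes) differed by less than 0.1. The KIF9 event with the difference of -0.160 had rates of 0.833, 0.2 and 0.857 in control and 0.357, 0.789 and 0.263 in RBM47 samples, so both groups covered the same range. The endosome motor KIF16B (0.776 and 0.817), KIF3A of intraflagellar transport (0.797 and 0.798) and KIF13B (0.479 and 0.578) also overlapped, each from under 100 reads in a group. A further 45 kinesin events lay outside mean rates of 0.1 to 0.9, and 4 of them differed by 0.05 or more. The heavy chain KIF5B was fully included, at 1, throughout.

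**Figure D3:**
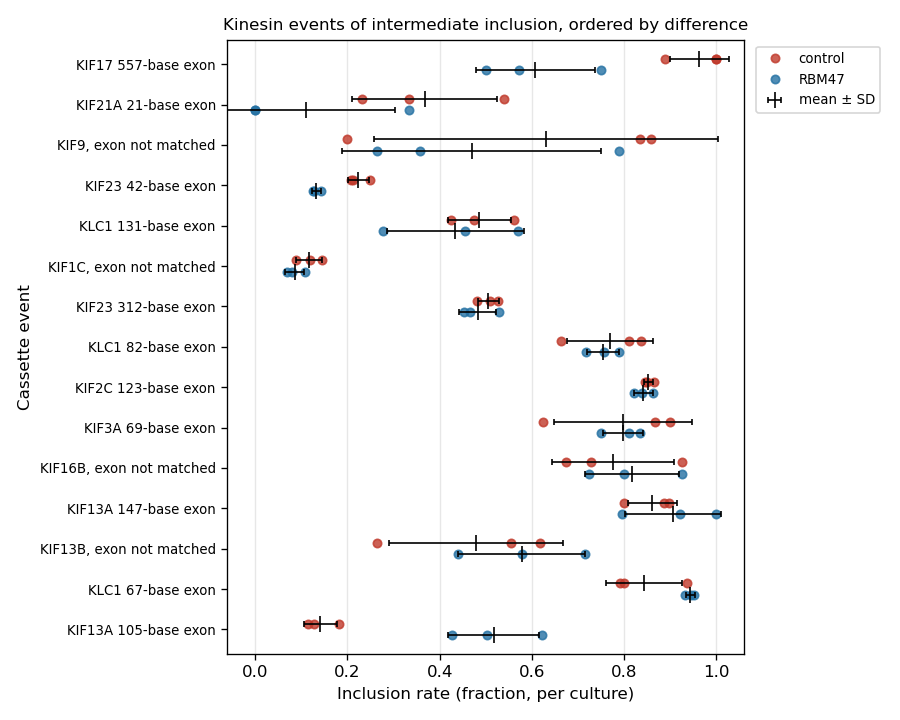
Inclusion rate (x axis, fraction) of the 14 kinesin events of intermediate inclusion with at least 30 reads in each group, and of the KIF21A exon past the study's criteria (y axis, named by gene and exon length in GRCh37 where matched). The axis says per culture, but the labels do not say whether samples were separate cultures. Points are samples, red control and blue RBM47, and black marks are the mean and SD of 3 samples. KIF13A stands apart upwards and KIF17 and the 42-base exon of KIF23 downwards, while the groups of the other events overlap.

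Read sums of the events gave a second measure that the symbols did not use. They have no replicates, mix RNA amount with depth and, for events that changed, with splicing itself, so they are given as values with no test. Events of a gene can share reads, which the gene's sum then counts more than once. Over 23902 events with at least 30 control reads, the ratio of RBM47 to control reads had a median of 0.852, and its 5th and 95th percentiles were 0.379 and 1.47. The ratio over all reads was 0.910. Of the 24 genes, 16 had a ratio under 1, where the median of all events and the ratio over all reads also lay. KIF21A was lowest, with 296 reads in control and 90 in RBM47 cells, a ratio of 0.304, and all 5 of its events were below the 5th percentile. A pair of its events shares outer ends and skipping reads. KIF5B, the ubiquitous heavy chain of conventional kinesin, followed with 2956 and 1077 reads, a ratio of 0.364 from a single event with a rate of 1 in both groups. CLSTN1 came next with 4886 and 1898 reads, a ratio of 0.388. The light chains went different ways, with ratios of 0.657 for KLC1, 1.04 for KLC2 and 1.52 for KLC4. KIF9, a motor of motile cilia, had the highest ratio, 1.82, from 717 and 1303 reads.

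**Figure D4:**
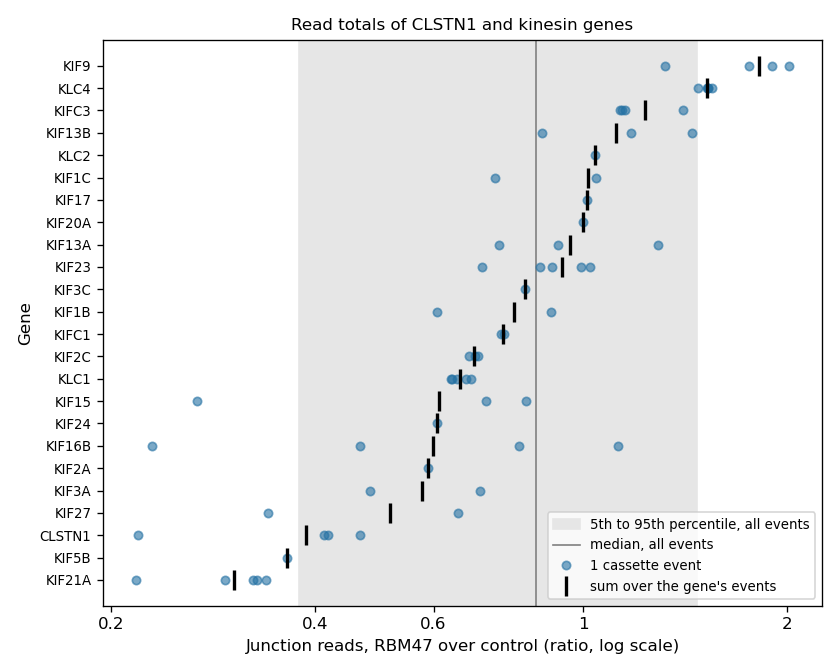
Ratio of RBM47 to control reads (x axis, log scale) for each member gene (y axis, ordered). The axis names junction reads, but the sums can hold including reads beyond those that enter the rates. Blue points are single events, black bars the sum over a gene's events, the grey band spans the 5th to 95th percentile of all events and the grey line is their median. KIF21A, KIF5B and CLSTN1 lie lowest, and KIF9 and KLC4 highest.

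The exons of the members were compared in length and in the sequence beside them. An exon could be matched for 36 of the 65 events, against 8507 in the whole table. In each of the 8 genes with several matched events, 1 fixed shift linked the table's positions to those of GRCh37. Matched member exons had a median of 109.5 bases (107 over all matched events). Their length was a multiple of 3, which keeps the reading frame, in 24 of 36 (66.7%), against 46.6% of all matched exons, and 91.7% against 79.3% were coding. Both CLSTN1 exons and those of KIF13A, KIF21A and the 42-base exon of KIF23 are multiples of 3, and that of KIF17 is not. A run of 5 T (TTTTT, on the strand of the gene) was searched in the 100 intron bases before and after each exon. It was present before 41.7% of member exons and 41.4% of all matched exons, and after 27.8% and 29.8%. The run stood after the 57-base exon of CLSTN1, before its 30-base exon, on both sides of the KIF21A exon and on neither side of those of KIF13A and KIF17. A match describes letters only.

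Genes that work with kinesin were taken from lists made by function, with earlier results of these data known. Nothing is therefore read from their shares. The list of 27 cargo adaptors and membrane partners had 67 events in 18 genes. Of these, 3 passed the study's criteria (1.4% of all events did), and the same 3 passed the replicate-level test, which could be made for 19 (1.53% of all events tested passed). KIFAP3, the subunit that ties the kinesin-2 motors KIF3A and KIF3B to cargo, gained an exon that control cells almost always skipped. Its rates were 0.0303, 0.0274 and 0 in control and 0.241, 0.237 and 0.284 in RBM47 replicates 1 to 3, and the groups did not overlap. The mean rose by 0.235 (limma adjusted p = 0.0136, and 0.0513 with the replicate number as a block), from 190 and 355 reads.

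SPAG9, a scaffold of stress kinases (JIP4) that binds kinesin light chains, lost inclusion of a 39-base exon. Its rates were 0.278, 0.283 and 0.342 in control and 0.0679, 0.0632 and 0.0829 in RBM47 replicates 1 to 3. The difference of -0.229 was several times the spread of either group (SD 0.0355 and 0.0103, n = 3 each, limma adjusted p = 0.00436), from 640 and 474 reads. MADD, which links vesicles of Rab3 to the kinesin-3 motors KIF1A and KIF1B, had a mean of 0.478 (SD 0.0932, n = 3) at a 60-base exon in control cells. With RBM47 it fell to 0.172 (SD 0.0606, n = 3, limma adjusted p = 0.0444). Its 6 samples did not overlap between the groups.

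The dynein and dynactin list (28 genes, 75 events in 18 genes) had 2 events past the study's criteria, against 1.4% of all events, and 0 past the replicate-level test of limma, which could be made for 5 and gave 2 with an unadjusted p under 0.05. Both were in close relatives that bring dynein its regulator LIS1. NDE1 stood at 0.536 ± 0.0659 and 0.243 ± 0.115 (limma adjusted p = 0.0863), and NDEL1 at 0.413 ± 0.140 and 0.183 ± 0.0517 (limma adjusted p = 0.174; SD, n = 3 each). Groups did not overlap in either, but from the read sums NDE1 differed by -0.197, under the size required. The control read sums gave NDE1 a rate of 0.810, nearer its printed control average (0.742) than its matched rate. Its RBM47 read sums gave 0.6125. For NDEL1 the control read sums gave 0.485, also nearer the printed average (0.507). The check on matched rates made for CLSTN1 and KIF13A thus did not hold here, and the levels of NDE1 and NDEL1 are uncertain. Of 20 microtubule-binding genes, 13 had 47 events. The study's criteria were passed by 1 of them (1.4% of all events) and the replicate-level test by the same 1, of 9 tested (1.53% of all events tested). CLIP1, which rides on growing microtubule ends, had a mean of 0.0470 (SD 0.00964, n = 3) in control cells and rose to 0.288 (SD 0.0699, n = 3, limma adjusted p = 0.0409, and 0.114 with the replicate number as a block). It had 306 and 96 reads. Median differences were 0 in all 3 lists, as over all events.

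All 6 events past the study's criteria in these lists were in rows matched by the RBM47 average alone, and in all 6 the read sums went the same way as the rates. Leaving out 1 sample could not change the direction of any of the 6, since their groups did not overlap. The limma adjusted p with 1 sample left out ran from 0.0405 to 0.0650 for KIFAP3, from 0.0594 to 0.194 for MADD and from 0.0514 to 0.150 for CLIP1. The calls of MADD and CLIP1 thus ended whichever sample was left out. For SPAG9 the limma adjusted p was at most 0.0369. The 4 calls of the replicate-level test became 1 without control replicate 3, RBM47 replicate 1 or RBM47 replicate 3, and 2 without any of the other samples. A further 3 events, seen after their values were known, had limma adjusted p of 0.00247 to 0.0250 with differences under 0.2. They were in APP, the amyloid precursor protein (-0.182 for a 57-base exon and -0.140), and in KTN1, the kinesin-binding membrane protein kinectin (-0.111). With 1 sample left out the limma adjusted p reached 0.0914 for KTN1 and 0.138 for the second APP event, and stayed at or under 0.0228 for the 57-base exon of APP. With the replicate number as a block it was 0.0533, 0.0737 and 0.0151 in the same order.

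**Figure D5:**
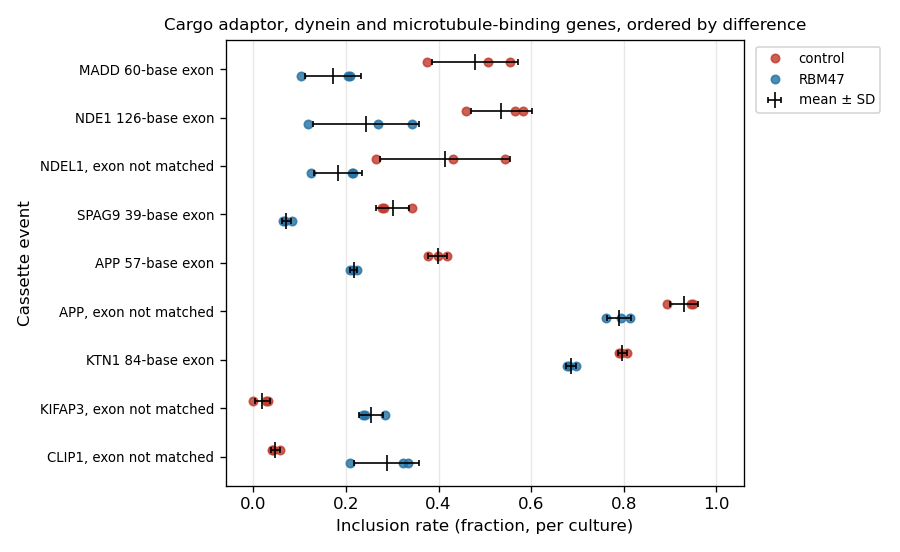
Inclusion rate (x axis, fraction) of 9 events in cargo adaptor, dynein and microtubule-binding genes (y axis, ordered by difference), namely the 6 past the study's criteria and the APP and KTN1 events with smaller differences. The axis says per culture, but the labels do not say whether samples were separate cultures. Points are samples, red control and blue RBM47, and black marks are the mean and SD of 3 samples. The groups overlap in none of the 9, with KIFAP3 and CLIP1 higher and the others lower with RBM47.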

How the data were processed

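Cassette exon splicing was measured by RNA-seq in 3 control and 3 RBM47 samples, grouped by their labels. The submitters' processing notes name TopHat, and the study's methods describe mapping to cassette junctions; the build of the table's coordinates is not given in the sources used here. The authors deposited inclusion rates (fraction, 1 per sample), the averages of each group, also as fractions, and read counts summed over each group. Columns with the authors' own differences, odds and p-values were not used, and 0 per-sample columns were left without a sample.

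Rates were used in their own row where the 3 rates of a group averaged to the printed average within 3e-09 (23333 rows). Elsewhere the rates of the row that matched both averages (1122) or, failing that, the RBM47 average alone (251) were taken, and 19 events had no rates, which left 24706. Of the members, 61 were aligned, 2 (KIFC3, KLC1) matched by both averages and 2 (the CLSTN1 57-base and KIF13A 105-base exons) by the RBM47 average. The rate from the control read sums had r = 0.968 across events with the control rates matched by the RBM47 average, against 0.0149 with the rates in the row.

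Fisher's exact test used scipy 1.17.1. The replicate-level test used limma 3.58.1 (R 4.3.3) on arcsine square root rates (trended variance over log2 reads) for events with a mean rate of 0.1 to 0.9, Benjamini-Hochberg adjusted over the table, in a form that an earlier analysis chose with results in view. It was tested on simulated data. Members and gene lists were chosen with earlier results of these data known. Events named were those of CLSTN1, those past either test and intermediate kinesin events differing by at least 0.1, and of the transport lists those past the study's criteria. Other KIF13A, KIF23, KLC1, KIFC3 and cell-division events, KIF21A's and KIF5B's read sums, APP and KTN1 were picked after their values were seen.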

Additional observations from a re-analysis of the deposited data

How the results depend on the processing

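The 3 member events past the study's criteria were KIF13A, KIF21A and, as a description, CLSTN1. The CLSTN1 exon was chosen by its difference, so its staying in these counts is no support. The 3 events became 5 with a difference of at least 0.1. In rows aligned as deposited they became 1, since the CLSTN1 57-base and KIF13A 105-base exons are left out there by construction. Other alternatives, leaving out 1 sample included, gave 2 to 4. The 2 member events past the replicate-level test (KIF13A and, as a description, CLSTN1) became 1 when events of every mean rate were tested and 1 when the variance had no trend, the KIF13A call being lost in both. They became 0 in aligned rows alone and 1 to 3 when 1 sample was left out. With a difference of at least 0.1, the 6 list events past the study's criteria became 10 and the 4 past the replicate-level test 7. Leaving out 1 sample gave 5 to 7 and 1 to 2. With the rates of its row as deposited, the KIF13A difference was -0.393, against 0.371 from its read sums. Apart from the aligned rows, the cause was not tested.

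The replicate block left 2 member events and 2 list events past the replicate-level test, and the calls of KIFAP3 (limma adjusted p = 0.0513) and CLIP1 (0.114) ended. Same-numbered samples had deviations with r of -0.0195, -0.00303 and 0.0155, and were therefore not treated as pairs. Over the named member events, 80 alternatives changed no call or stayed within the spread, 4 moved further, 3 put the limma adjusted p above 0.05, 2 put it under 0.05 and 1 reversed. These events include those of CLSTN1, with the exon chosen by its difference. The CLSTN1 events with rates near 0 entered no limma test and had no such call to change. Part of the 80 was therefore fixed in advance. The depth of a single sample is unknown, which limits the precision of every rate.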
